A study of Mus musculus with 12 samples.

Results

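Fibroblast and smooth muscle genes were followed in mouse colon tumors and small intestine crypts with and without ieCtnnb1, an intestinal enhancer upstream of Ctnnb1, the gene for β-catenin. The members are 10 genes chosen by name, 5 of fibroblasts (Pdgfra, Pdgfrb, Dcn, Lum and Vim) and 5 of smooth muscle (Acta2, Tagln, Myh11, Des and Cnn1), out of 54532 genes in each expression table, and each name matched exactly 1 row. The crypt groups were Wild type and ieCtnnb1KO mice, and the tumor groups were APCmin/+ and APCmin/+;ieCtnnb1KO mice, with 3 libraries in each group. All mice were labelled adult and untreated, and the legends of the study give the tumor mice as 5 months old. Every tumor mouse carried APCmin/+, a mutant allele of the tumor suppressor Apc, so no tumor library comes from a mouse without it. The enhancer deletion was homozygous in the germline on a C57BL/6 background, so fibroblasts and muscle cells carried it as well as the epithelium. Below, control stands for Wild type or APCmin/+, and knockout for ieCtnnb1KO or APCmin/+;ieCtnnb1KO.

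Both tissues were measured as bulk RNA. Crypts were released from small intestine with EDTA, shaken and filtered without a sort, and tumors were taken as whole tissue. Values are FPKM, fragments per kilobase of gene length scaled to the fragments of the library, and the whole fragments behind them could be recovered, 14457896 to 16156712 on genes per library. The labels do not number the animals, whereas the legends of the study count 3 mice in each group, and p-values measure the spread between these libraries.

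Fibroblasts make the connective tissue of the gut wall and the stroma of tumors. They carry the receptors for platelet-derived growth factors, Pdgfra and Pdgfrb, the second of which also marks pericytes around capillaries, and they secrete the small proteoglycans decorin (Dcn) and lumican (Lum), which bind collagen fibrils. Vim encodes vimentin, an intermediate filament of mesenchymal cells that leukocytes and endothelium also make. Smooth muscle cells contract with α-smooth muscle actin (Acta2), smooth muscle myosin (Myh11), calponin (Cnn1), transgelin (Tagln) and the intermediate filament desmin (Des). Acta2 and Tagln are also made by myofibroblasts and pericytes, and Des, Myh11 and Cnn1 are not confined to the muscle layers either. Serum response factor, with myocardin as its cofactor in muscle, is the textbook regulator of these contractile genes through a DNA element called the CArG box.

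In the gene models of the tables (GRCm38) the fibroblast genes are Pdgfra (ENSMUSG00000029231, chr5:75152292-75198215), Pdgfrb (ENSMUSG00000024620, chr18:61045150-61085061), Dcn (ENSMUSG00000019929, chr10:97479609-97518143), Lum (ENSMUSG00000036446, chr10:97565128-97572703) and Vim (ENSMUSG00000026728, chr2:13573927-13582826), all on the plus strand. Dcn and Lum, both small leucine-rich proteoglycans, thus lie close together on chromosome 10. The muscle genes are Acta2 (ENSMUSG00000035783, chr19:34241090-34255336), Tagln (ENSMUSG00000032085, chr9:45929619-45936058) and Myh11 (ENSMUSG00000018830, chr16:14194535-14291372) on the minus strand, and Des (ENSMUSG00000026208, chr1:75360329-75368579) and Cnn1 (ENSMUSG00000001349, chr9:22099216-22109630) on the plus strand.

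The targeted gene was read first. In crypts Ctnnb1 was at 121, 134 and 123 FPKM in Wild type replicates 1 to 3 and at 102, 104 and 105 FPKM in ieCtnnb1KO, and in tumors at 299, 363 and 358 FPKM in controls and 279, 248 and 250 FPKM in knockouts. All knockout libraries lay below all control libraries in both tissues, in the direction the labels give, but at the same total of FPKM the crypt libraries overlapped and their log2 fold change went from −0.28 to −0.13. Neither difference passed (adjusted p = 0.849 in crypts and 0.303 in tumors, limma).

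Some libraries stood apart on genes outside the members. In Wild type crypts the stomach mucosal peptide Tff2 was at 122 and 53.6 FPKM in replicates 1 and 2 and at 1.09 in replicate 3, against 0.105, 3.37 and 0.122 FPKM in ieCtnnb1KO. The gastric gene Gkn2 followed, at 12.3 and 15.1 FPKM in the same Wild type libraries and listed at 0 in the other 4 crypt libraries. In tumors the posterior patterning gene Hoxd10 was at 0.136, 11.3 and 10.2 FPKM in control replicates 1 to 3 and at 0.137, 0.240 and 5.58 FPKM in knockouts, so 3 of 6 tumor libraries were low. Hoxb13, a gene of the distal colon, was between 70.1 and 128 FPKM in every tumor library and at 0 in every crypt library, as the labelled organs have it. Xist, the RNA of the inactive X chromosome, was at 114 and 61.4 FPKM in replicate 3 of control and knockout tumors and at most 0.0623 FPKM in the other tumor libraries, so the female libraries were balanced between the genotypes.

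In tumors every member but Tagln was above 1 FPKM in all 6 libraries. In control tumors the fibroblast genes ranked, in mean FPKM ± SD over 3 libraries, as Vim at 179 ± 50.7, Dcn at 29.4 ± 2.95, Pdgfra at 16.3 ± 1.01, Pdgfrb at 13.6 ± 3.78 and Lum at 3.995 ± 0.867. Pdgfra and Pdgfrb lay within their spread of each other, and the other neighbours in that order did not. The muscle genes ranked as Acta2 at 89.3 ± 11.8, Des at 9.88 ± 4.99, Cnn1 at 9.11 ± 3.26, Myh11 at 7.94 ± 0.800 and Tagln at 0.464 ± 0.0253, with Des, Cnn1 and Myh11 within their spread of each other. In Wild type crypts only Vim at 7.50 ± 1.62 FPKM and Dcn at 3.31 ± 0.945 FPKM exceeded 1 FPKM. Acta2 was at 0.145 ± 0.0730 FPKM there, and the 6 crypt libraries together held 22 Acta2 fragments against 17063 in the 6 tumor libraries. The tables of the tissues were normalized separately and the organs differ, so these levels stand side by side without a test.

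**Figure D1:**
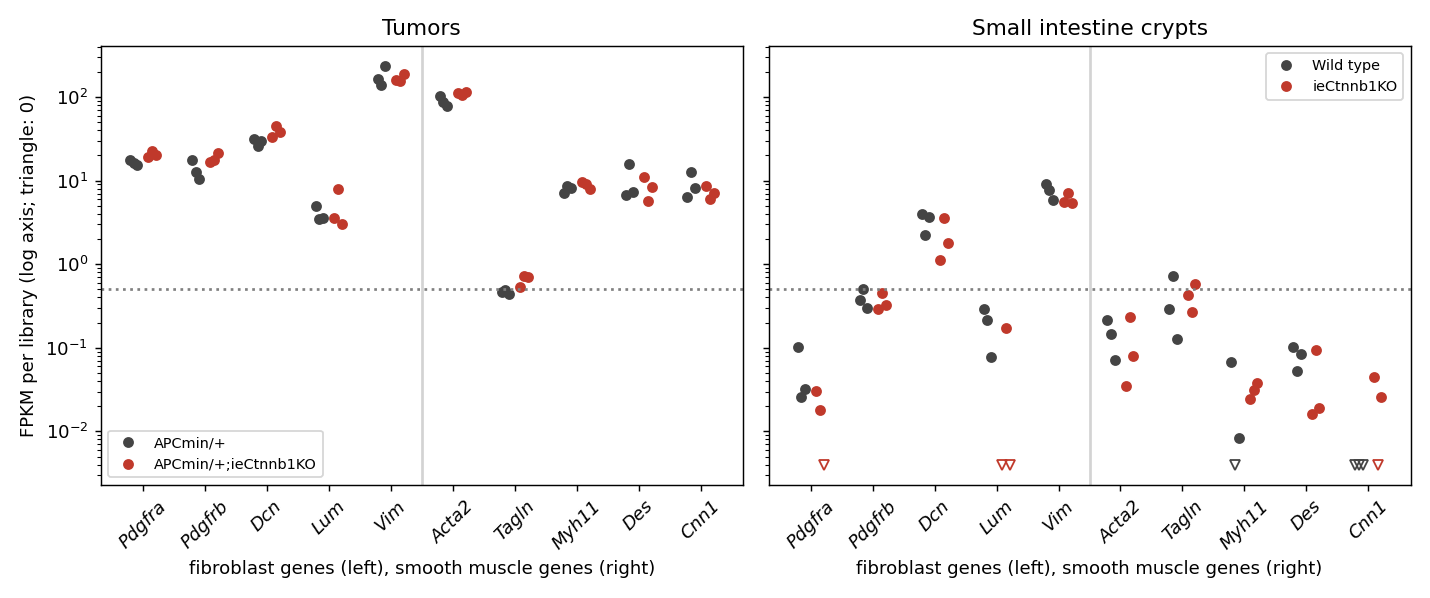
FPKM of the 10 members in each library on a log axis, tumors on the left and crypts on the right, with gray points for control and red points for knockout libraries, open triangles for a value of 0 and a dotted line at the 0.5 FPKM used as the filter on mean level. In tumors 9 members sit well above the line and Tagln sits close to it, whereas in crypts only Vim and Dcn are above it in every library.

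Tagln did not follow the other muscle genes. Its fragments numbered 74 over the 6 crypt libraries and 106 over the 6 tumor libraries, and its mean in controls was 0.381 FPKM in crypts and 0.464 FPKM in tumors, whereas Acta2 exceeded Tagln by 148-fold to 218-fold within the tumor libraries on this scale per length. Of the gene's exonic bases on the minus strand 1349 of 1988, 67.9%, also lie in exons of genes on the opposite strand, 1241 in Gm48529 and 108 in Pcsk7. The next highest shares with any annotated gene were 6.50% for Pdgfra, with Gm42802, Gm42803 and Mir7025, and 5.86% for Des, with Gm15179, and the other 7 members share none. Gm48529 itself was at 0.852, 1.05 and 1.24 FPKM in control tumors and 1.03, 1.55 and 0.936 FPKM in knockout tumors. Whether the counting used the strand is not given in the sources used here, and without it reads of Tagln and of its antisense neighbours cannot be told apart. The part of this overlap in the low values was not tested, and Tagln is uncertain below. Reads of Acta2 may likewise be shared with the other actin genes, whose coding sequences are close to it.

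Among the fibroblast genes of the tumors, the values of Pdgfra and Dcn separated the genotypes. Pdgfra was at 17.4, 16.2 and 15.4 FPKM in control replicates 1 to 3 and at 19.4, 22.5 and 19.99 FPKM in knockouts. Every knockout library exceeded every control library, with a log2 fold change of 0.32 ± 0.09 (SE, on the log2(FPKM + 0.5) scale) and an exact two-sided permutation p of 0.1, the smallest that 3 against 3 libraries can give. Dcn was at 31.8, 26.1 and 30.2 FPKM in controls and 33.7, 44.5 and 38.7 FPKM in knockouts, again without overlap, with a log2 fold change of 0.40 ± 0.13. In bulk tissue, more cells of a type and more RNA per cell cannot be told apart.

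The other fibroblast genes overlapped. Pdgfrb was at 17.8, 12.6 and 10.5 FPKM in controls and 16.7, 17.6 and 21.4 FPKM in knockouts, where control replicate 1 lay among the knockouts. Its log2 fold change of 0.46 ± 0.20 became 0.29 without control replicate 3 and 0.66 without control replicate 1. Lum was at 4.996, 3.47 and 3.52 FPKM in controls and 3.55, 7.84 and 3.01 FPKM in knockouts, and knockout replicate 2 alone stood high. Its log2 fold change of 0.15 ± 0.33 became −0.24 without that library. Vim was at 163, 139 and 236 FPKM in controls and 162, 155 and 191 FPKM in knockouts, highest in replicate 3 of each genotype. Its log2 fold change of −0.05 ± 0.21 became 0.17 without control replicate 3 and 0.01 without knockout replicate 2, and was −0.28 with quantile normalization.

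The muscle genes of the tumors split into groups with different profiles over the libraries. Acta2 was at 102, 88.0 and 78.2 FPKM in controls and 112, 107 and 115 FPKM in knockouts, without overlap, with a log2 fold change of 0.32 ± 0.12 (0.15 with quantile normalization and 0.21 at the same total of FPKM, both with overlap) and an exact permutation p of 0.1. Tagln was at 0.466, 0.488 and 0.437 FPKM in controls and 0.531, 0.721 and 0.710 FPKM in knockouts, also without overlap, but these are 13 to 23 fragments a library. Its log2 fold change was 0.26 ± 0.19. Myh11 was at 7.04, 8.57 and 8.22 FPKM in controls and 9.58, 9.11 and 7.98 FPKM in knockouts, with overlap. Its log2 fold change of 0.15 ± 0.12 became 0.08 without control replicate 1, 0.10 without knockout replicate 1 and 0.23 without knockout replicate 3, and was 0.05 at the same total of FPKM.

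Des and Cnn1, in contrast, were led by single libraries. Des was at 6.70, 15.6 and 7.32 FPKM in controls and 11.02, 5.63 and 8.28 FPKM in knockouts, and Cnn1 at 6.39, 12.7 and 8.21 FPKM in controls and 8.61, 5.97 and 7.13 FPKM in knockouts. Both were highest in control replicate 2 and lowest in knockout replicate 2, whereas Acta2 was lowest in control replicate 3 and highest in knockout replicate 3. The log2 fold change of Des was −0.18 ± 0.36, and it became 0.19 without control replicate 2, 0.06 without knockout replicate 2 and −0.40 without control replicate 1 or knockout replicate 1. That of Cnn1 was −0.27 ± 0.25 and became −0.02 without control replicate 2, −0.15 without knockout replicate 2 and −0.49 without control replicate 1. The ratio of Acta2 to Des ran from 5.63 in control replicate 2 to 19.0 in knockout replicate 2. Actg2, the γ-actin of visceral muscle, had its highest and lowest libraries in common with Des, at 28.5, 43.1 and 26.7 FPKM in controls and 37.8, 24.1 and 34.9 FPKM in knockouts. Myl9, a myosin light chain of muscle and other contractile cells, was at 54.5, 39.8 and 38.8 FPKM in controls and 60.6, 54.2 and 64.8 FPKM in knockouts, closer to Acta2. Actg2 and Myl9 were picked after their values were seen, and other genes of their list had other profiles. Lmod1, Synm and Ppp1r12b were highest in knockout replicate 2, where Des was lowest.

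**Figure D2:**
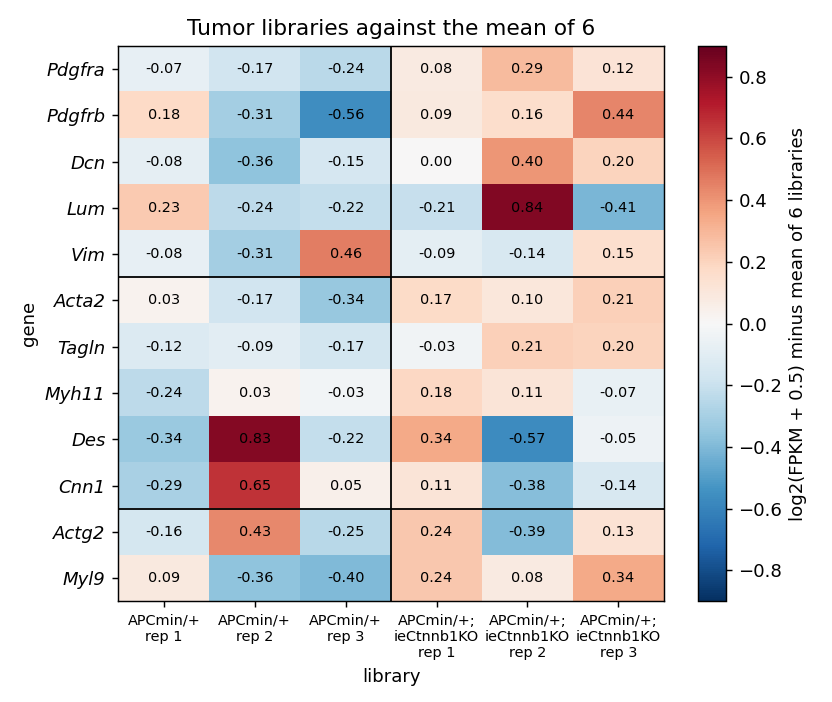
Each tumor library against the mean of the 6, in log2(FPKM + 0.5), for the fibroblast genes (top), the muscle genes (middle) and Actg2 and Myl9 of the other smooth muscle list (bottom), with red for above and blue for below the mean. Des stands at 0.83 and Cnn1 at 0.65 above the mean in control replicate 2, where Acta2 stands at −0.17 and Dcn at −0.36. Actg2 and Myl9 were picked after their values were seen.

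Promoters are shown for the muscle genes whose tumor profiles part, since Acta2 on the one side and Des and Cnn1 on the other are all textbook targets of serum response factor. RefSeq promoter windows (GRCm38.p6, 250 bases before to 50 after the start, 5′ to 3′ on the gene's strand) were held for 5 of the 10 members, Pdgfra, Vim, Acta2, Des and Cnn1. The windows were searched for CCNNNNNNGG with at least 5 A or T among its 6 middle bases, a loose form of the CArG box that reads alike on both strands. It occurs in 3280 of 32851 windows (9.98%), and 270 windows (0.822%) hold it more than once. The Acta2 window (chr19:34255324-34255623, minus strand) holds 2 matches, CCCTATATGG starting 84 bases and CCTTGTTTGG starting 34 bases before the gene start, shown in capitals. The windows of Des (chr1:75360042-75360341, plus strand) and Cnn1 (chr9:22099003-22099302, plus strand), like those of Pdgfra and Vim, hold no match, which says only that these letters are not in these 300 bases. With all 6 middle bases A or T the motif is in 1.63% of windows and in none of the 5.
Acta2: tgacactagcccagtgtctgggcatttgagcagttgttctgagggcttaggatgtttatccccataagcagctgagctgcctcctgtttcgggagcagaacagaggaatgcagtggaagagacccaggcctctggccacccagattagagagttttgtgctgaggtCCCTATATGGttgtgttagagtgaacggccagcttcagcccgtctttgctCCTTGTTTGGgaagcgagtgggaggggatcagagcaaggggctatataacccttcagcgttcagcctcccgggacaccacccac
Des: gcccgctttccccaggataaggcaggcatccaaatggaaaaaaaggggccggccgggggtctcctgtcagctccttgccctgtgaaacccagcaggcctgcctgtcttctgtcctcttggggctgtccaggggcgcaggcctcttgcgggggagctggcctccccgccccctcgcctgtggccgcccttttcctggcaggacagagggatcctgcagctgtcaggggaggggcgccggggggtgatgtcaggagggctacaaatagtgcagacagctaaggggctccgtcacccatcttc
Cnn1: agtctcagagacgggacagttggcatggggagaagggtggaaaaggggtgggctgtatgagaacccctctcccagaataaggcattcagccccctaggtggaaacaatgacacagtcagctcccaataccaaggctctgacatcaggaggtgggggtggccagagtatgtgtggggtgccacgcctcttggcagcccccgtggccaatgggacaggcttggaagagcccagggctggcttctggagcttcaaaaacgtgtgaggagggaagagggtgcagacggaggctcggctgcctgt

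Myl9, picked after its tumor values were seen to run close to those of Acta2, holds 2 matches of the loose motif in its window (chr2:156775214-156775513, plus strand), CCTAATAAGG and CCTTGTAAGG. No window was held for Actg2, the gene picked beside Des. The windows of the rest of the other smooth muscle list were not looked at one by one. A link between the motif and the tumor profiles was not tested. A match is a description of the letters and not a bound site. The factors themselves were measured in the same tumors. Srf was at 25.8, 23.8 and 27.3 FPKM in controls and 34.2, 26.3 and 30.4 FPKM in knockouts (log2 fold change 0.23 ± 0.12, 0.14 without knockout replicate 1 and 0.12 at the same total of FPKM or with quantile normalization), and Myocd, the myocardin gene, was under 0.5 FPKM in all 6. Of the 3 tested genes of that list 2 were higher and 1 lower in knockouts (1 and 2 at the same total of FPKM), Mkl1 at 0.05 ± 0.08 and Mkl2 at −0.22 ± 0.10 in log2 fold change, and none separated the groups as deposited. Mkl2 was lower without overlap at the same total of fragments, and at either total without the 50 highest genes.

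Set against all genes, no member passed the test in tumors. Limma on log2(FPKM + 0.5) called 0 of 16743 tested genes at an adjusted p under 0.05 (0%), as did voom on the recovered fragments, with 2604 genes at an unadjusted p under 0.05. The adjusted limma p of the members ran from 0.282 for Pdgfra to 0.927 for Vim. At an unadjusted p under 0.05 limma called 2421 genes (14.5%), 1417 of them higher (8.46%) and 1004 lower (6%) in knockouts. The members past that mark were Pdgfra, Dcn and Acta2, 3 of 10, all higher. Values without overlap between genotypes were found for 1912 genes higher (11.4%) and 1781 lower (10.6%) in knockouts. Among the members Pdgfra, Dcn and Acta2 lay higher without overlap and 0 of 10 lower, and Acta2 overlapped with quantile normalization or at the same total of FPKM. Tagln also lay higher, but its mean was under 0.5 FPKM in controls, so it passed the filter only through the knockouts and is not counted. The balance of the unadjusted calls moved with the scaling between libraries, from 58.5% higher as deposited to 44.4% at the same total of fragments (44.2% without the 50 highest genes), 46.3% with quantile normalization, 41.4% with voom and 29.1% at the same total of FPKM (27.2% without the 50 highest genes). None of these scalings turned the direction of a member in tumors. Without control replicate 2 or 3 the unadjusted count was 1399 or 1436.

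**Figure D3:**
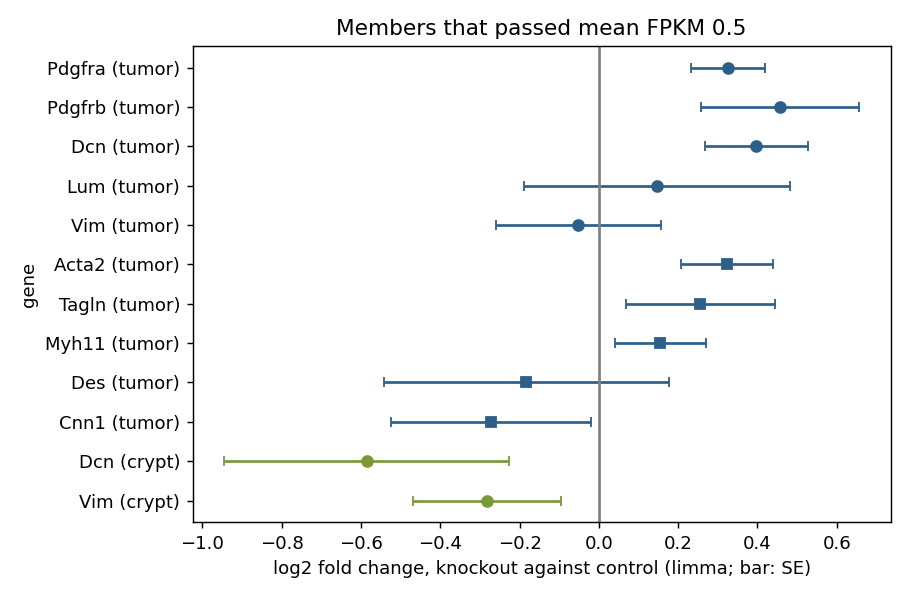
Log2 fold change of knockout against control on the log2(FPKM + 0.5) scale with its standard error from limma, for the 10 members in tumors (blue) and the 2 members tested in crypts (green), circles for fibroblast and squares for muscle genes. Pdgfra, Pdgfrb, Dcn, Acta2, Tagln and Myh11 lie above 0 by more than 1 standard error in tumors, Cnn1 lies below 0 by more than that, and Dcn and Vim lie below 0 in crypts.

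As a measure of stroma, the mean log2(FPKM + 0.5) over the 5 genes of each kind was taken per library. The fibroblast mean was 4.64, 4.32 and 4.46 in control tumors and 4.57, 4.91 and 4.70 in knockout tumors. Control replicate 1 exceeded knockout replicate 1, so the groups overlapped, and the difference of 0.25 compares with SDs of 0.16 and 0.17 (n = 3 each). The muscle mean was 3.03, 3.47 and 3.08 in controls and 3.38, 3.12 and 3.26 in knockouts with a difference of 0.06 against SDs of 0.24 and 0.13. Without Tagln, whose value is uncertain, the muscle difference was 0.0056. Its highest library was control replicate 2, the library with the lowest fibroblast mean, and muscle minus fibroblast ran from −1.78 in knockout replicate 2 to −0.85 in control replicate 2. The muscle difference became 0.19 without control replicate 2 and 0.12 without knockout replicate 2, turned to −0.03 without control replicate 1 and to just under 0 without control replicate 3 or knockout replicate 1, and was −0.04 at the same total of FPKM. The fibroblast difference ran from 0.16 without knockout replicate 2 to 0.34 without control replicate 1, and was 0.15 at the same total of FPKM. On the same measure 10 epithelial genes stood at 8.40, 8.31 and 8.18 in controls and 8.62, 8.61 and 8.67 in knockouts. That is a difference of 0.33 without overlap, so as deposited a higher mean was not particular to stroma. With quantile normalization the median log2 fold change was 0.05 for the epithelial genes and 0.26 for the fibroblast members.

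Most of the other fibroblast genes had higher means in knockout tumors, and most overlapped between the genotypes. Of 25 listed, 22 were tested (Mfap5 only through its mean in knockouts), 21 of them higher and 1 lower in knockouts (20 and 2 at the same total of fragments or of FPKM), with a median log2 fold change of 0.44 beside 0.01 over all tested genes. Without overlap 6 were higher (11.4% of all tested genes were), and 0 passed the adjusted test. Col1a1, a chain of type I collagen and the most abundant of the list, was at 137, 81.6 and 68.5 FPKM in controls and 144, 151 and 143 FPKM in knockouts. Pcolce, an enhancer of procollagen processing, was at 8.71, 6.61 and 6.65 FPKM in controls and 10.01, 13.8 and 11.1 FPKM in knockouts (log2 fold change 0.64 ± 0.16, adjusted p = 0.269). Col6a1 and Serpinf1 also separated the groups, with log2 fold changes of 0.57 ± 0.15 and 0.55 ± 0.16.

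The other smooth muscle genes were divided, as the muscle members were. Of 25 tested, 14 were higher and 11 lower in knockouts, 12 and 13 at the same total of FPKM. The median log2 fold change was 0.08 (−0.03 at the same total of FPKM). Without overlap 5 were higher and 1 lower, where 11.4% and 10.6% of all tested genes were. Ppp1r14a, an inhibitor of myosin phosphatase, was at 6.42, 5.28 and 3.72 FPKM in controls and 9.77, 8.62 and 7.60 FPKM in knockouts (log2 fold change 0.72 ± 0.20, adjusted p = 0.276). Tpm2, a muscle tropomyosin, and Smtn, smoothelin, followed at 0.38 ± 0.12 and 0.30 ± 0.12, the latter 0.20 without control replicate 3 or at the same total of FPKM. Csrp1, the most abundant gene of the list, overlapped, at 124, 116 and 112 FPKM in controls and 157, 113 and 168 FPKM in knockouts.

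Genes of pericytes, which share Pdgfrb and Acta2 with the members, were all on the higher side. All 8 were higher in knockout tumors under every scaling tried, with a median log2 fold change of 0.50. Without overlap 4 were higher, where 11.4% of all tested genes were. Mcam, the most abundant, was at 21.3, 14.8 and 14.9 FPKM in controls and 24.1, 21.8 and 28.1 FPKM in knockouts, and Higd1b at 0.365, 0.572 and 0.553 FPKM against 1.10, 1.03 and 0.984 FPKM, from 5 to 15 fragments a library. Higd1b counts among the 8, in the median and among the 4, but its control mean was under 0.5 FPKM. It passed the filter only through the knockouts, so it is no support for a direction. Ndufa4l2 had the widest difference of the list, at 0.94 ± 0.27. Of the mesenchymal genes of the crypt niche 10 of 12 tested were higher. Without overlap 3 were higher (11.4% of all tested genes were), Bmp4, Wnt5a and Foxf1, the last with overlap at the same total of FPKM. The signal Bmp4 was at 22.0, 17.5 and 15.8 FPKM in controls and 24.2, 32.0 and 29.4 FPKM in knockouts. F3, tissue factor and the most abundant of that list, overlapped, at 72.6, 84.0 and 85.3 FPKM in controls and 113.5, 59.5 and 110.3 FPKM in knockouts, with a log2 fold change of 0.17 ± 0.25 that became 0.01 without knockout replicate 1, 0.03 without knockout replicate 3, 0.47 without knockout replicate 2 and 0.10 without control replicate 1, and was 0.01 with quantile normalization.

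The ligands of the member receptors did not share a direction. Pdgfb, which binds both receptors, was at 9.57, 9.77 and 8.23 FPKM in control tumors and 11.8, 10.8 and 15.5 FPKM in knockouts, without overlap (log2 fold change 0.43 ± 0.15, 0.29 without knockout replicate 3, adjusted p = 0.311). Pdgfa, the most abundant ligand, was at 22.5, 23.8 and 25.7 FPKM in controls and 24.0, 21.4 and 23.5 FPKM in knockouts (log2 fold change −0.06 ± 0.09). Pdgfc and Pdgfd had log2 fold changes of −0.19 ± 0.15 and −0.35 ± 0.30. As deposited, Pdgfa, Pdgfc and Pdgfd all overlapped between the genotypes. Of the 4 ligands 1 was higher and 3 were lower in knockouts, with a median log2 fold change of −0.12 (−0.23 at the same total of FPKM).

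Markers of other cell types were measured in the same tumors. All 10 epithelial genes were higher in knockouts, 9 of them without overlap (11.4% of all tested genes were), with a median log2 fold change of 0.25. Their summed level, led by Krt8, was 4881, 4962 and 4359 FPKM in controls and 5779, 5577 and 5988 FPKM in knockouts. With quantile normalization 7 were higher, 2 of these without overlap, and 3 lower, with a median of 0.05. The smallest p among those without overlap were those of Krt20, Vil1 and Cldn7, and Vil1 overlapped with quantile normalization or at the same total of FPKM. Of 10 endothelial genes 8 were higher (6 at the same total of FPKM). Without overlap 3 were higher (11.4% of all tested genes were), Pecam1, Eng and Emcn. The endothelial sum, led by Eng, was 70.7, 65.1 and 56.4 FPKM in controls and 74.8, 70.4 and 77.4 FPKM in knockouts. Of 9 tested immune genes 7 were higher (4 at the same total of FPKM) and 0 separated the groups, and their sum, led by Lyz2, was 499, 328 and 541 FPKM in controls and 461, 613 and 333 FPKM in knockouts. No defining gene of these 3 lists was at 0 in all tumor libraries. Their part in the member values was not tested, nor was that of Hoxd10, low in 1 control and 2 knockout libraries. With Hoxd10 above 1 FPKM as a covariate, chosen after the data were seen, the fibroblast difference was 0.21 and the muscle difference 0.10.

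**Figure D4:**
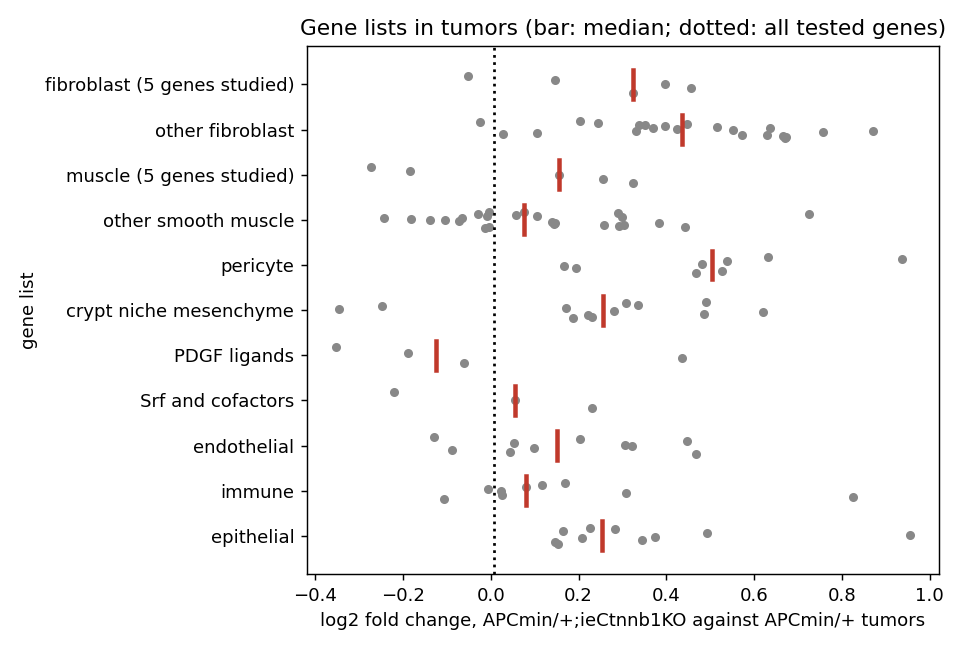
Log2 fold change of each tested gene (gray points) of 11 gene lists in knockout against control tumors, with the median of each list as a red bar and the median of all tested genes as a dotted line. The medians of the other fibroblast list at 0.44 and the pericyte list at 0.50 lie to the right. That of the muscle members lies nearer to 0, at 0.15 (0.05 at the same total of FPKM). So does that of the other muscle list, at 0.08 (−0.03 at the same total of FPKM). The epithelial median lies at 0.25 (0.05 with quantile normalization). Tagln, Higd1b and Mfap5 count in the muscle member, pericyte and other fibroblast medians, and passed the filter only through the knockouts. Beside Tagln the muscle members stand at 0.32 (Acta2), 0.15 (Myh11), −0.18 (Des) and −0.27 (Cnn1), so the sign of their median rests on Tagln.

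Genes most like the members over the 6 tumor libraries were taken as those with the smallest root mean square difference from the centred member mean, among 9033 tested genes of at least 5 FPKM. For the fibroblast mean they were Arrb2, Gda, Cdh17 and Akr1c12, at 0.036 to 0.045 log2 units. Arrb2, a β-arrestin, was at 10.7, 8.86 and 9.61 FPKM in controls and 10.7, 12.8 and 10.98 FPKM in knockouts. Cdh17, a cadherin of intestinal epithelium, was at 85.1, 73.9 and 77.3 FPKM in controls and 85.6, 101.1 and 91.2 FPKM in knockouts. For the muscle mean they were Cep131, Bcl2l14, Baiap2l2 and Hsdl1, at 0.059 to 0.068 log2 units, all highest in control replicate 2 or knockout replicate 1.

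In crypts 8 of the 10 members were under the filter, and the knockout question rested on Vim and Dcn. Vim was at 9.03, 7.65 and 5.81 FPKM in Wild type replicates 1 to 3 and at 5.53, 7.12 and 5.43 FPKM in ieCtnnb1KO. The lowest Wild type library lay below the highest ieCtnnb1KO library, and the log2 fold change was −0.28 ± 0.19 (adjusted p = 0.896). Dcn was at 3.98, 2.23 and 3.72 FPKM in Wild type and 1.13, 3.60 and 1.79 FPKM in ieCtnnb1KO, again with overlap, at −0.59 ± 0.36 (adjusted p = 0.893). The exact two-sided permutation p was 0.2 for both. These were the 2 of 10 members with a mean of at least 0.5 FPKM. Without both Wild type libraries that held stomach genes, which leaves 1 Wild type library assumed to vary like the others, Vim stood at 0.04 and Dcn at −0.76 in log2 fold change. Vim moved to −0.15 without Wild type replicate 1 and −0.44 without Wild type replicate 3, and Dcn to −0.28 without ieCtnnb1KO replicate 1 and −0.95 without ieCtnnb1KO replicate 2.

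The remaining 8 members stayed under the filter in crypts. Pdgfrb was at 0.377, 0.501 and 0.303 FPKM in Wild type and 0.292, 0.458 and 0.325 FPKM in ieCtnnb1KO, from 25 to 42 fragments a library. Lum was at 0.290, 0.214 and 0.0782 FPKM in Wild type and 0, 0.171 and 0 FPKM in ieCtnnb1KO. The groups overlapped, since ieCtnnb1KO replicate 2 lay above Wild type replicate 3. Wild type replicate 3 holds 3 fragments of Lum and a count of 0 allows up to 3, which is at most 0.0801 FPKM. At this depth ieCtnnb1KO replicates 1 and 3 could thus not be told apart from it, whereas Wild type replicates 1 and 2 lay above this floor. Pdgfra had 16, 4 and 5 fragments in Wild type and 5, 3 and 0 in ieCtnnb1KO, and Acta2 had 6, 4 and 2 against 1, 7 and 2. Such floors cover counting error only. Des and Myh11 had at most 6 and 8 fragments in a library, both with overlap, and Cnn1 had 3 fragments in all 6 libraries.

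The set means of the crypts overlapped between the genotypes as well. The fibroblast mean in log2(FPKM + 0.5) was 0.83, 0.61 and 0.54 in Wild type and 0.21, 0.68 and 0.30 in ieCtnnb1KO, with overlap through ieCtnnb1KO replicate 2. The difference was −0.27 against SDs of 0.15 and 0.25 (n = 3 each), on a scale that understates changes of low genes, and −0.15 without both Wild type libraries with stomach genes. It was −0.18 without Wild type replicate 1, −0.18 without ieCtnnb1KO replicate 1 and −0.41 without ieCtnnb1KO replicate 2. The muscle mean was −0.67, −0.64 and −0.85 in Wild type and −0.75, −0.70 and −0.69 in ieCtnnb1KO, a difference of 0.01 that ran from −0.06 to 0.05 as single libraries were left out and turned to −0.02 without Tagln. A gene at 0 stands at −1 on this scale.

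Over all genes limma called 0 of 14176 tested crypt genes at an adjusted p under 0.05 (0%), as did voom, with 742 at an unadjusted p under 0.05. Limma called 829 at an unadjusted p under 0.05 (5.85%), 494 higher (3.48%) and 335 lower (2.36%) in ieCtnnb1KO. Without overlap 963 genes were higher (6.79%) and 730 lower (5.15%), and 0 of the 2 tested members were among them. The share of unadjusted calls that were higher was 59.6% as deposited, 39.8% at the same total of fragments without the 50 highest genes, 82.2% at the same total of FPKM and 35.9% at that total without the 50 highest genes. The same total of FPKM moves the median of all crypt genes from 0.01 to 0.14, and relative to it the median of Vim and Dcn was −0.45, as it was −0.45 before. A factor per library moves all genes nearly alike, so this match follows from the scaling and says nothing about the members. Without Wild type replicate 1 the unadjusted count was 1344, and without ieCtnnb1KO replicate 1 it was 462. Without Wild type replicate 3 the adjusted test called 3 genes, the gastric genes Gkn2, Gkn1 and Pgc.

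The other lists held a few genes above every member in crypts, and which cells made them was not tested. Of the other fibroblast genes 8 of 25 were tested, 2 higher and 6 lower in ieCtnnb1KO, and Col3a1, a fibrillar collagen, was at 0.737, 0.766 and 0.734 FPKM in Wild type and 0.369, 0.474 and 0.239 FPKM in ieCtnnb1KO, without overlap (adjusted p = 0.845). Fap was also lower and Prrx1 higher without overlap, and Fap overlapped at the same total of fragments or of FPKM or with quantile normalization. Col3a1, Col6a1 and Fap passed the filter only through Wild type and Prrx1 only through ieCtnnb1KO, so the filter shapes these differences and the counts of this list are no support for a direction. The most abundant of that list, Fbln1, was at 18.0 to 24.7 FPKM in Wild type and 17.3 to 38.1 FPKM in ieCtnnb1KO, a level reached by none of the members there. Of the other smooth muscle genes 11 of 25 were tested, 3 higher and 8 lower (6 and 5 at the same total of FPKM), led by Tpm1. Without overlap 4 were lower (5.15% of all tested genes were), among them Csrp1, Flna and Pdlim7. At the same total of FPKM 0 of that list were lower and 1 higher without overlap, and 2 were lower so with quantile normalization. Lmod1, Kcnmb1 and Casq2 of that list were at 0 in every crypt library, and Acta2 held 22 fragments over all of them. The tested genes of that list can thus not be read as a measure of muscle in crypts. Pericyte and endothelial lists had 1 tested gene each, Mcam and Pecam1, both with overlap. Immune genes were better represented, with 9 of 10 tested, 2 higher and 7 lower (4 and 5 at the same total of FPKM), Ptprc lower without overlap (0 lower and 1 higher so at the same total of FPKM), and a summed level of 50.04, 46.6 and 55.6 FPKM in Wild type and 42.6, 51.1 and 39.1 FPKM in ieCtnnb1KO, led by Laptm5. Their part in the Vim values, which leukocytes share, was not tested.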

How the data were processed

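RNA-seq of colon tumors and small intestine crypts was used, with 3 libraries in each of 4 groups taken from the labels. The authors deposited FPKM per gene in 1 table per tissue. The submitters' notes name cutadapt, HISAT2, Cufflinks 2.2.1 and DESeq2 with mm10, the study's methods name featureCounts, and the strand setting is not given in the sources used here. FPKM fell on whole multiples of 1 fragment (within 0.1) for 100% of values above 0. In each tissue genes with a mean of at least 0.5 FPKM were fitted by limma 3.58.1 (R 4.3.3, Python 3.11.15) with a variance trend after a log2 transform with 0.5 added, Benjamini-Hochberg adjusted over all fitted genes, and the fit was tested on simulated data. Set means carry no p. Exonic overlaps came from the GENCODE annotation. Members and lists were chosen with earlier results of these data known. All members are named, and of each other list up to 3 genes with the smallest p among those without overlap and the most abundant gene. Myl9, Actg2, Mkl1, Mkl2, Pdgfc, Pdgfd, Gm48529, Pcsk7 and the genes that mark single libraries were named after their values were seen. Alternatives were other pseudocounts, filters, scalings and variance models, voom, a replicate block, covariates and left-out libraries.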

Additional observations from a re-analysis of the deposited data

Results flagged for a closer look

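Among the members no result took opposite directions without overlap in both tissues. Among the other listed genes 3 did, with every knockout library on one side of every control library in crypts and on the other side in tumors. In crypts all 3 overlapped at the same total of fragments or of FPKM, and in each case the difference between the tissues was not tested. The collagen gene Col6a2 differed by −0.32 in crypts and by 0.63 in tumors, in log2(FPKM + 0.5), knockout minus control. Its crypt values nearest each other come from 25 fragments in Wild type replicate 2 and 26 in ieCtnnb1KO replicate 2. The pericyte gene Ndufa4l2 differed by −0.43 in crypts and 0.94 in tumors. Its crypt libraries held 5, 6 and 2 fragments in Wild type and 0, 2 and 1 in ieCtnnb1KO. Wild type replicate 3 and ieCtnnb1KO replicate 2 hold the same count of 2 and part only through the scaling. The direction in crypts is uncertain at this depth. Atp4a, a gene of the gastric proton pump, differed by 0.48 in crypts and −0.66 in tumors, with 11 fragments in both Wild type replicate 1 and ieCtnnb1KO replicate 3 of the crypts. All 3 were under 0.5 FPKM on average in crypts and so were not fitted there. Groups of 3 libraries were not searched for single outlying values.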

How the results depend on the processing

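No member passed the adjusted limma test in either tissue under any setting tried. The lowest adjusted p of a member was 0.178, for Pdgfrb in tumors without APCmin/+ replicate 1. In crypts the fibroblast difference became −0.50 with a pseudocount of 0.1, and the muscle difference 0.13 without both Wild type libraries with stomach genes. Without that pair of libraries Vim reversed to 0.039 and Pdgfa to −0.072 in crypts. Mcam in crypts reversed to 0.017 with quantile normalization, and at the same total of FPKM Mcam, Tpm1 and Srf reversed to 0.049, 0.078 and 0.051. In tumors, with Hoxd10 above 1 FPKM as a covariate, Lum reversed to −0.052 and Vim to 0.019. Genes with an adjusted p under 0.05 in tumors numbered 1 without a variance trend (Mir3473e, at 0.048). The Hoxd10 covariate, the totals of FPKM and the pair of libraries were chosen after seeing the data, and the cause of these shifts was not tested.

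Leaving out each library in turn, the fibroblast difference ranged from −0.41 to −0.18 in crypts and from 0.16 to 0.34 in tumors, and the muscle difference from −0.06 to 0.05 in crypts and from −0.03 to 0.19 in tumors. Calls at an adjusted p under 0.05 ranged from 0 to 3 in crypts and from 0 to 0 in tumors. In tumors Des ranged from −0.40 to 0.19 (0.055 without knockout replicate 2), Vim from −0.22 to 0.17, Lum from −0.24 to 0.39, Lyz2 from −0.25 to 0.21 and Gkn3 from −0.48 to 0.45. In crypts Pdgfa ranged from −0.077 to 0.15, Mcam from −0.18 to 0.019, Acta1 from −0.54 to 0.046 and Tpm1 from −0.13 to 0.013.

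The labels do not give replicate numbers as pairs. Correlations of the deviations of same-numbered libraries were −0.0466, −0.122 and 0.0370 in crypts and 0.0541, −0.0898 and 0.0525 in tumors, and not every library correlated best with its own number. With the replicate block 0 genes passed an adjusted p under 0.05 in both tissues, and the unadjusted count went from 829 to 732 in crypts and from 2421 to 1882 in tumors. Under a mean of at least 1 FPKM Tagln left the tumor fit. Voom on recovered fragments called 0 genes in both tissues. Depth limits the muscle members in crypts, where no library held more than 22 fragments of a muscle member.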

Other observations

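Other lists were small. In tumors 2 of 3 genes of interstitial cells of Cajal were tested, both higher in knockouts with overlap, led by Ano1. Of 9 striated muscle genes 1 was tested in each tissue, Acta1, the skeletal α-actin. It was at 8.49, 1.89 and 3.31 FPKM in control tumors and 5.50, 8.32 and 6.30 FPKM in knockout tumors, lowest in control replicate 2, the library with the highest Des and Cnn1. In crypts Acta1 was at 3.66, 8.86 and 4.98 FPKM in Wild type and 3.92, 3.81 and 5.79 FPKM in ieCtnnb1KO, above every smooth muscle member. Reads shared between Acta1 and Acta2 were not separated.

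Among the fibroblast genes 3, singled out after their values were seen, had control levels in crypts near to or above those in tumors. Fbln1, a matrix glycoprotein, was at 18.0, 18.2 and 24.7 FPKM in Wild type crypts and 21.7, 20.8 and 19.0 FPKM in APCmin/+ tumors. Prrx1, a mesenchymal homeobox gene, was at 0.368, 0.532 and 0.444 FPKM in Wild type crypts and 0.894, 0.707 and 1.13 FPKM in ieCtnnb1KO crypts, without overlap (adjusted p = 0.823, limma), and at 0.123, 0.170 and 0.133 FPKM in APCmin/+ tumors. Fap, a surface protease of activated fibroblasts, was at 0.570, 0.612 and 0.530 FPKM in Wild type crypts and 0.142, 0.268 and 0.142 FPKM in APCmin/+ tumors.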
